A study of Oryctolagus cuniculus with 6 samples.

Results

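The genes described here, apart from 3 phosphatases and 1 proton pump of another kind, encode subunits of the mitochondrial respiratory chain and of the ATP synthase. They are the 47 rows of the deposited gene table that carry the KEGG pathway oxidative phosphorylation, out of 64 such rows and 16367 genes in all, once the 17 rows with a vacuolar proton pump symbol (ATP6V) are set aside. Of the 47 members, 34 are nuclear genes and 13 are the protein-coding genes of the mitochondrial genome. A pathway is entered for only 3869 genes of the table, so many known subunits are outside the members, and 10 further subunits and assembly factors with no pathway entry are described apart.

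RNA came from rabbit (Oryctolagus cuniculus) tissue in 6 libraries, 3 titled control and 3 titled test, which the design text describes as 2 conditions with 3 replicates each. The series title speaks of perichondral tissue, the sheath around cartilage, whereas every sample is labelled subcutaneous tissue. The labels give no strain, sex, age, treatment or time for either group, and no statement of whether the libraries came from separate animals, so the p-values measure the spread between these libraries, which may be technical. Fibroblast genes and cartilage genes were both present, at summed levels from 17407 to 41528 and from 1852 to 4397 counts per 1000000 counts (CPM). Of the adipocyte genes, ADIPOQ had 112.7, 60.9 and 135.5 CPM in control and 35.9, 34.5 and 27.3 CPM in test libraries. LEP, an adipocyte hormone, had 0 counts in every library.

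Oxidative phosphorylation runs in the inner mitochondrial membrane. Complex I takes electrons from NADH and complex II from succinate, complex III passes them to cytochrome c, and complex IV hands them to oxygen. Complexes I, III and IV pump protons as they work, and complex V, the ATP synthase, lets the protons return and makes ATP. All these complexes except complex II are built from products of both genomes. The mitochondrial genome supplies the hydrophobic core proteins from a few long polycistronic transcripts, while the nucleus supplies the remaining subunits, which are imported.

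Transcripts of the mitochondrial genome were lower in the test tissue, while many nuclear subunits of the same complexes were higher. Of the 13 mitochondrially encoded members, 11 fell, 0 rose and 2 did not pass the test. Of the 33 nuclear members with enough counts to be tested, 15 rose, 0 fell and 18 did not pass. All 15 were among the 30 nuclear members of complexes I to V. Among all 12740 genes tested, 13% were called in either direction, 6.84% higher and 6.15% lower (edgeR quasi-likelihood test, Benjamini-Hochberg adjusted p under 0.05). The median log2 fold change, test over control, was -0.70 for the mitochondrially encoded members and 0.44 for the nuclear ones. It was 0.48 for the nuclear members of complexes I to V, where the median of all genes was 0.00. The numbers of calls depended on the libraries kept. Leaving out control replicates 1, 2 and 3 in turn gave 15, 11 and 7 nuclear members called higher, where 9.08%, 7.79% and 3.03% of all genes were. Leaving out test replicates 1, 2 and 3 gave 7, 5 and 6, where 2.67%, 2.05% and 1.87% of all genes were. In the same order of 6 fits, 11, 13, 10, 8, 9 and 8 mitochondrially encoded members were called lower, where 7.48%, 6.91%, 2.39%, 1.86%, 1.54% and 1.53% of all genes were. The nuclear rise also varied with genomic span, as described further on. Of the 31 nuclear members with a span, 13 were called higher without a correction for it, where 6.7% of all such genes were. With the correction 5 were, where 5.18% of all such genes were, and the nuclear median was 0.28. In bulk tissue, fewer cells of a type and less RNA per cell cannot be told apart.

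**Figure D1:**
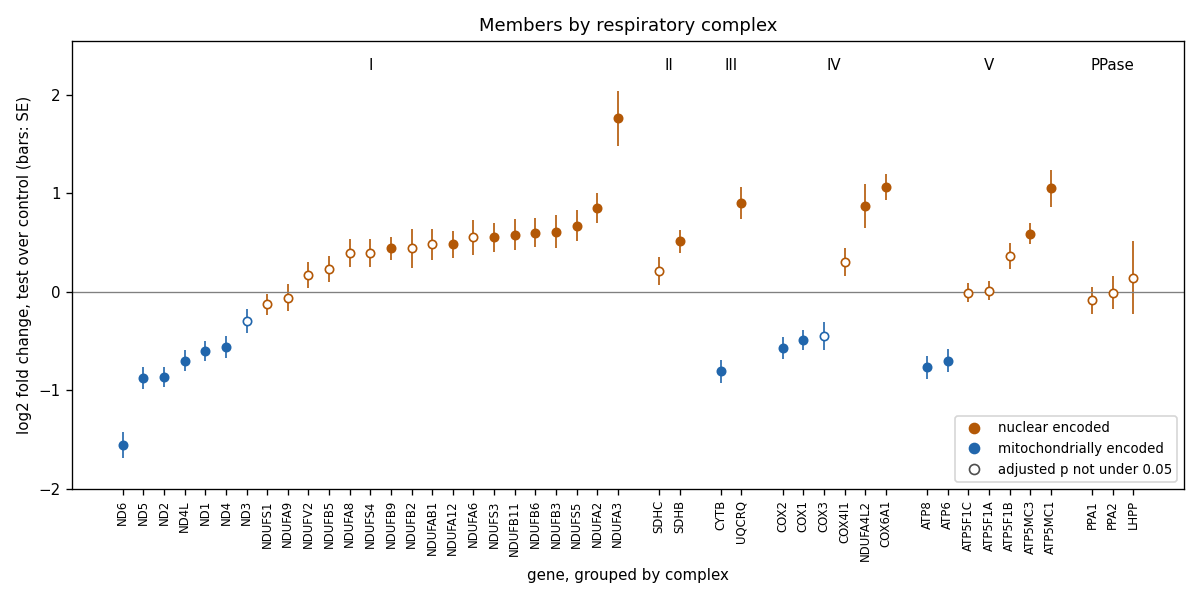
Log2 fold change (test over control) of 45 of the 46 tested members, with the standard error as bars, grouped by complex and coloured by the genome that encodes them. Filled points passed an adjusted p of 0.05. All 13 mitochondrially encoded points lie below 0, and 27 of the 32 nuclear points lie above it.

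Total counts per library ran from 21923246 to 23105606 in the control group and from 17820537 to 21199562 in the test group, so every control library was deeper. Levels below are CPM scaled by edgeR to the normalized library size, with SD over n = 3 libraries per group. Median coefficients of variation between control libraries were 7.46% for the mitochondrially encoded members, 10.8% for the nuclear ones and 20.7% for all genes, and between test libraries they were 6.36%, 6.12% and 13.8%. Control replicate 2 gave the lowest control value for 20 of the 33 nuclear and 10 of the 13 mitochondrially encoded members.

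Among the mitochondrially encoded subunits of complex I (ND1 to ND6 and ND4L, the proton-pumping membrane arm), 6 of 7 fell, with a median of -0.70. ND6 (ENSOCUG00000029113) stood apart. It is the only protein-coding gene on the light strand of mammalian mitochondrial DNA. It had 60.4, 63.3 and 59.3 CPM in the control libraries and 19.7, 21.9 and 20.5 CPM in the test libraries, from 4180 and 1210 counts. Each test value lay below each control value, and the log2 fold change was -1.56 ± 0.13 (SE, adjusted p = 0.00026). ND5, whose gene neighbours ND6 on the opposite strand, had 8504, 8856 and 7524 CPM in control and 4434, 4745 and 4327 CPM in test libraries, a log2 fold change of -0.88 ± 0.11 (adjusted p = 0.00121). Per 1000 counts of ND5 there were 7.1, 7.15 and 7.88 counts of ND6 in the control libraries and 4.45, 4.61 and 4.73 in the test libraries. That ratio did not overlap between the groups. It was picked after the values were seen and was not tested. The strand setting of the authors' counting is not given in the sources used here, so reads of a gene and of transcripts from the other strand may not be separated.

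ND2 fell from 5920, 5308 and 5461 CPM to 3177, 3099 and 2848 CPM (log2 fold change -0.87 ± 0.10, adjusted p = 0.00113). ND4L and ND1 had values of -0.70 and -0.60 (adjusted p = 0.00458 and 0.00556). Both calls held without any single library, as did those of ND2, ND5 and ND6. ND4, whose transcript is shared with ND4L and whose reading frame overlaps it, had 6030, 5574 and 5380 CPM against 3883, 4038 and 3561 CPM (log2 fold change -0.56 ± 0.11, adjusted p = 0.00927), and was not called once test replicate 1 (adjusted p = 0.0503) or test replicate 3 (0.0619) was left out. ND3 moved least of the 13, from 1428, 1161 and 1329 CPM to 1086, 1111 and 989 CPM. Its groups did not overlap, but its log2 fold change of -0.30 ± 0.12 missed the threshold (adjusted p = 0.118), and it passed only without control replicate 2 (0.0272).

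CYTB, the cytochrome b of complex III, fell from 8852, 7093 and 8191 CPM to 4894, 4607 and 4229 CPM (log2 fold change -0.81 ± 0.12, adjusted p = 0.00301), a call that held without any single library. COX1, COX2 and COX3 form the core of complex IV, and 2 of these 3 fell (median -0.49). COX1, which holds the site of oxygen reduction, had 53283, 46557 and 50659 CPM in control libraries and 36787, 37280 and 33424 CPM in test libraries. The test values lay below all control values, with a log2 fold change of -0.49 ± 0.10 (adjusted p = 0.0161). COX2, which here names cytochrome oxidase subunit II and not the cyclooxygenase, fell by 0.57 on the log2 scale (SE 0.11, adjusted p = 0.0103). COX3 had 6507, 4676 and 5957 CPM against 4321, 4416 and 3790 CPM (log2 fold change -0.45 ± 0.14), and missed the threshold (adjusted p = 0.0551). It passed without control replicate 2 (0.00349), with limma-voom (0.0402), with DESeq2 (0.0184) and with no filter on low counts (0.0411). The COX1 call ended without control replicate 3 (0.0645) and without test replicate 1, 2 or 3 (0.0694, 0.0737 and 0.0834). The COX2 call ended without any single test library (0.0525, 0.0523 and 0.0644).

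ATP6 and ATP8, membrane subunits of the ATP synthase encoded by overlapping reading frames, both fell. ATP6 had 12220, 9957 and 10507 CPM in control and 6971, 7040 and 6129 CPM in test libraries (log2 fold change -0.70 ± 0.12, adjusted p = 0.00553). ATP8 had 860.2, 706.2 and 743.4 CPM against 452.2, 487.9 and 418.4 CPM (log2 fold change -0.77 ± 0.12, adjusted p = 0.004). Both calls held without any single library. Values of ATP6 with ATP8, and of ND4 with ND4L, are uncertain because reads in the overlap can count for either gene, and copies of mitochondrial DNA in the nuclear genome can share reads with all 13. The test group lay below the control group in 13 of 13 genes, as it did in 16.6% of all genes tested. Among the 33 tested nuclear members the test group lay above in 23 and below in 1 (NDUFS1), where it lay above in 18.4% of all genes.

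**Figure D2:**
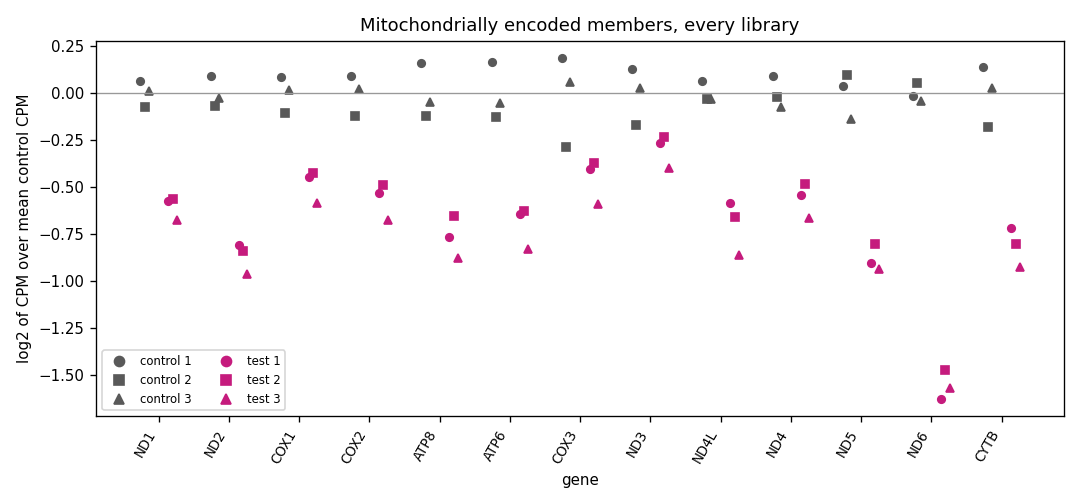
Level of each mitochondrially encoded member in every library, as the log2 of its CPM over the mean control CPM, with genes in their order along the mitochondrial genome. Grey marks are control and pink marks test libraries. ND6 reached the lowest values and ND3 the ones nearest to the controls, and fold changes showed no steady rise or fall along the order.

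The fall was not of 1 size across the mitochondrial genome. COX1 made up 43.4%, 43.6% and 44.4% of all mitochondrially encoded counts in the control libraries and 46.9%, 46.9% and 47.1% in the test libraries. ND2 made up 4.82%, 4.97% and 4.79% in control and 4.05%, 3.9% and 4.01% in test libraries. ND3 went the other way, with 1.16%, 1.09% and 1.16% in control and 1.39%, 1.4% and 1.39% in test libraries. None of these shares overlapped between the groups. By contrast, COX2 held 11.5%, 11.4% and 11.8% of the mitochondrially encoded counts in control and 11.7%, 11.8% and 11.7% in test libraries, where the groups overlap. These shares are descriptions with no test.

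The nuclear subunits of complex I were 19 members, of which 9 rose and 0 fell (median 0.48). They divide into core subunits, which carry the redox centres, and accessory subunits, which surround and stabilise the core. Of the 4 core members, 1 rose. NDUFS1, the large iron-sulphur subunit, had 89.5, 94.4 and 99.2 CPM in control and 88.4, 81.6 and 88.1 CPM in test libraries, a log2 fold change of -0.13 ± 0.11 (adjusted p = 0.469). NDUFV2, a subunit of the NADH-oxidising tip, had a log2 fold change of 0.17 ± 0.13 (adjusted p = 0.418). NDUFS3, the core member that rose, had 51.6, 38.6 and 37.9 CPM against 62.9, 60.4 and 64.9 CPM (log2 fold change 0.55 ± 0.15, adjusted p = 0.0364), and stayed called when control replicate 1 was left out but not when any other library was (adjusted p from 0.0538 to 0.137). The difference between core and accessory subunits was not tested. After the correction for gene span described further on, 0 of the 4 core members were called. Of the 13 accessory members with a span, 2 were then called higher, where 5.18% of all genes with a span were.

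Of the 15 accessory members of complex I, 8 rose (median 0.48). NDUFA3 (ENSOCUG00000021989) changed most of all nuclear members, from 9.08, 4.91 and 5.06 CPM to 20.8, 17.4 and 26.2 CPM, on 441 and 1260 counts. Every test library was above every control library, with a log2 fold change of 1.76 ± 0.28 (adjusted p = 0.00467). NDUFA2 had 19.1, 16.7 and 18.2 CPM in control and 33, 32.8 and 32 CPM in test libraries (log2 fold change 0.85 ± 0.15, adjusted p = 0.00762). The calls of NDUFA3 and NDUFA2 held without any single library. NDUFS5 rose from 26.2, 28.9 and 20.6 CPM to 39, 39.9 and 41.8 CPM (log2 fold change 0.67 ± 0.16, adjusted p = 0.0254), and NDUFB6 from 19.5, 17.9 and 18.8 CPM to 27.9, 29 and 28.2 CPM (0.60 ± 0.15, adjusted p = 0.0305). The other called members were NDUFB3, NDUFB11, NDUFA12 and NDUFB9, with log2 fold changes of 0.61, 0.58, 0.48 and 0.44 (adjusted p from 0.0394 to 0.0451). NDUFS5 and NDUFB6 were not called without control replicate 3 (adjusted p = 0.0825 and 0.0838), test replicate 1 (0.0786 and 0.0973), test replicate 2 (0.0893 and 0.109) or test replicate 3 (0.106 and 0.112). NDUFB3 and NDUFB11 were called only without control replicate 1, NDUFA12 only without control replicate 2, and NDUFB9 only without control replicate 3 (adjusted p = 0.0211, 0.0284, 0.0387 and 0.049). Of the 7 that did not pass, NDUFA6, NDUFAB1 (the mitochondrial acyl carrier protein), NDUFB2, NDUFS4, NDUFA8 and NDUFB5 had values from 0.23 to 0.55, and NDUFA9 had -0.06. NDUFA6 passed without control replicate 1 (0.0289) and with DESeq2 (0.048).

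**Figure D3:**
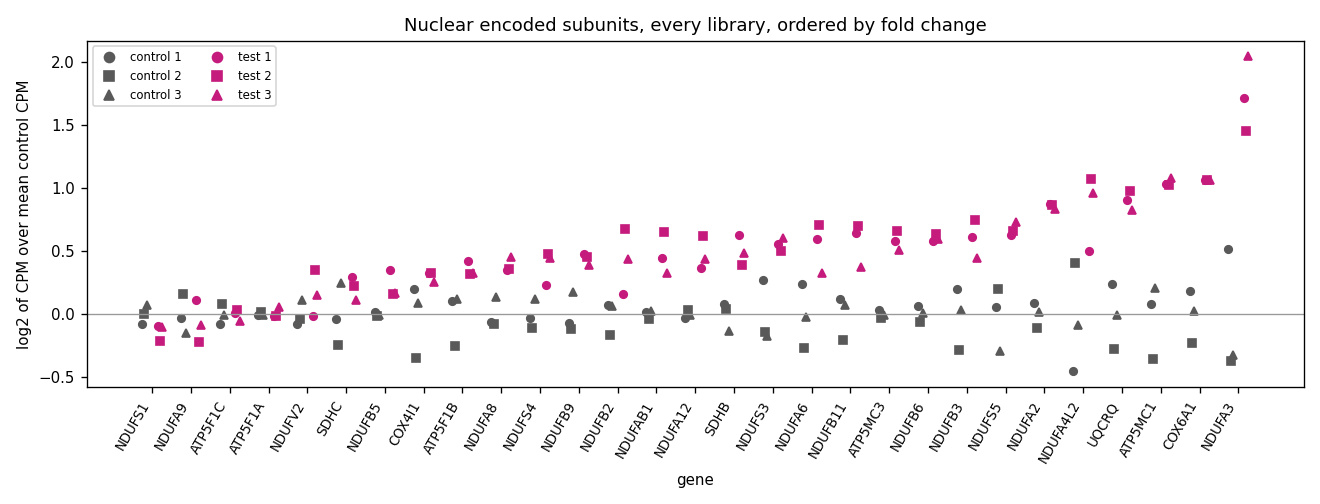
Level of 29 of the 30 tested nuclear subunits of complexes I to V in every library, as the log2 of its CPM over the mean control CPM, ordered by fold change. Test libraries (pink) lie above all control libraries (grey) for 23 of the 29 subunits, and below them for NDUFS1.

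Complex II, succinate dehydrogenase, has no mitochondrially encoded part. Its iron-sulphur subunit SDHB rose from 62.3, 60.6 and 53.5 CPM to 90.9, 77.2 and 82.4 CPM (log2 fold change 0.51 ± 0.12, adjusted p = 0.026). SDHC, a membrane anchor, overlapped between the groups, with 84.5, 73 and 102.7 CPM against 106.2, 101.3 and 93.9 CPM (log2 fold change 0.21 ± 0.14, adjusted p = 0.356). The SDHB call ended without control replicate 3 (adjusted p = 0.0943) and without test replicate 1, 2 or 3 (0.112, 0.0725 and 0.099). UQCRQ, the nuclear member of complex III, rose from 37.8, 26.4 and 31.9 CPM to 59.8, 62.9 and 56.8 CPM, a log2 fold change of 0.90 ± 0.16 (adjusted p = 0.00644) that was called without any single library. It thus moved opposite to CYTB, its mitochondrially encoded partner.

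In complex IV, 2 of the 3 nuclear members rose. These include NDUFA4L2, a relative of a subunit that is counted with complex IV in all counts, sums and figures here. COX6A1, the subunit VIa isoform found outside heart and skeletal muscle, had 64.2, 48.2 and 57.5 CPM in control and 118.3, 118.4 and 118.1 CPM in test libraries. The test libraries were almost equal to each other and all above the controls, with a log2 fold change of 1.06 ± 0.13 (adjusted p = 0.00118). NDUFA4L2, a hypoxia-inducible relative of the complex IV subunit NDUFA4, had 25.9, 47.1 and 33.5 CPM against 50.3, 74.8 and 69 CPM (log2 fold change 0.87 ± 0.22, adjusted p = 0.0319). The NDUFA4L2 call ended without control replicate 3 (adjusted p = 0.105), test replicate 2 (0.135) and test replicate 3 (0.12), while that of COX6A1 held without any single library. COX4I1, a subunit that joins the complex early in its assembly, had 233.4, 160 and 216.6 CPM in control and 255.5, 255.2 and 241.9 CPM in test libraries (log2 fold change 0.30 ± 0.14, adjusted p = 0.191).

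In the ATP synthase, 2 of the 5 nuclear members rose. The members of the catalytic part are the alpha, beta and gamma subunits, and none of these passed the test. The epsilon subunit of this part, ATP5F1E, is not a member and was called higher. Its log2 fold change was 0.59 ± 0.16 (adjusted p = 0.0411), as given further on. ATP5F1A (alpha) had 509.7, 517.3 and 509.1 CPM in control and 507.4, 505.9 and 532.3 CPM in test libraries, and ATP5F1C (gamma) 210.9, 235 and 221.4 CPM against 223.6, 227 and 214 CPM. Their log2 fold changes were 0.01 ± 0.10 and -0.01 ± 0.10 (adjusted p = 0.967 and 0.979). ATP5F1B (beta) had 329.9, 258.1 and 333.7 CPM against 411.8, 383.2 and 385.7 CPM (0.36 ± 0.13, adjusted p = 0.0884), and passed without control replicate 1 (0.0461). Both members that encode subunit c, the protein of the rotating membrane ring, rose. ATP5MC1 went from 16.3, 12 and 17.8 CPM to 31.5, 31.3 and 32.6 CPM (log2 fold change 1.05 ± 0.19, adjusted p = 0.00742), and ATP5MC3 from 77.4, 73.9 and 75.3 CPM to 113.2, 119.4 and 107.7 CPM (0.59 ± 0.11, adjusted p = 0.00898). The ATP5MC1 call held without any single library and that of ATP5MC3 ended without test replicate 2 (0.0581). The genes of subunit c encode the same mature protein and have processed pseudogenes, so reads can be shared between them. The difference between these members and those of the catalytic part was not tested. After the correction for gene span described further on, ATP5F1A, ATP5F1B and ATP5F1C had -0.17, 0.39 and -0.04. ATP5MC1 and ATP5MC3 then had 0.62 and 0.17.

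The remaining 4 members belong to no respiratory complex, and 0 of the 3 that were tested passed. The inorganic pyrophosphatases PPA1 (cytosolic) and PPA2 (mitochondrial) had log2 fold changes of -0.09 ± 0.14 and -0.01 ± 0.17, and the phosphatase LHPP one of 0.14 ± 0.37 (adjusted p = 0.70, 0.972 and 0.844). ATP12A, a proton and potassium pump, had 14 counts in test replicate 2 and 0 in the other 5 libraries, and was not tested.

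Counts of mitochondrially encoded subunits were lower relative to nuclear ones in each of complexes I, III, IV and V. They made up 13.3%, 10.1% and 11.7% of all counts in the control libraries and 7.78%, 7.77% and 6.97% in the test libraries. Summed over complexes I to V, there were 50, 47.3 and 46.5 mitochondrially encoded counts per nuclear count in the control libraries and 26.8, 27 and 24.5 in the test libraries. For complex I this ratio was 32.9 ± 1.87 in control and 16.1 ± 0.608 in test libraries (mean ± SD, n = 3 per group), and for complex IV it was 235 ± 11.5 and 113 ± 6.56. The single pair of complex III (CYTB over UQCRQ) gave 253 ± 17.8 and 76.5 ± 4.71. Complex V gave 10.3 ± 0.967 and 5.62 ± 0.416. The groups did not overlap in any of these ratios. No p is given for sums over chosen members. The size of a ratio depends on which subunits are members and on transcript length, so only its difference between groups can be read. That difference is not corrected for the trend with gene span described further on. UQCRQ, the nuclear part of the complex III ratio, had a log2 fold change of 0.90, and 0.35 after the span correction. Both parts of the ratio over complexes I to V differed. The summed nuclear level was 2253 to 2457 CPM in control and 2891 to 2948 CPM in test libraries, and the summed mitochondrially encoded level 106698 to 122796 CPM and 70972 to 79485 CPM.

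**Figure D4:**
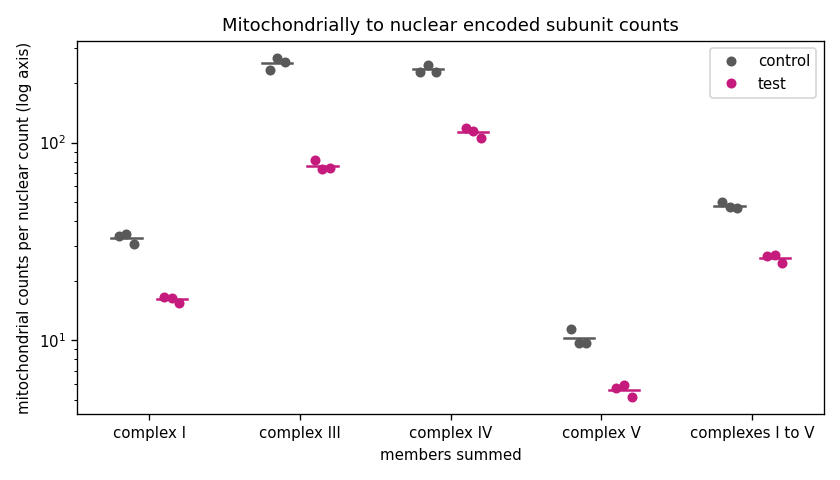
Counts of mitochondrially encoded members per count of nuclear members of the same complex, 1 point per library and a bar at the group mean, on a log axis. Control libraries (grey) lie above test libraries (pink) in complexes I, III, IV and V and in their sum.

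Since the mitochondrially encoded genes hold a large part of each library, library sizes and normalization factors were also computed without them. The 26 calls became 26, again with 15 nuclear members higher and 11 mitochondrially encoded members lower, while 6.85% of all genes were then called higher and 6.17% lower. The medians were again 0.44 and -0.70. TMM factors are trimmed averages over many genes, so leaving out these 13 could change the scaling only a little.

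The nuclear members that rose were mostly genes of short genomic span. Spans, from RefSeq rabbit gene records, were available for 31 of the 33 tested nuclear members. Their median was 13015 bases, against 36190 bases for all 8880 tested genes with one. All genes with a span were divided by it into 5 groups of 1776. In the group with the shortest spans (up to 11134 bases), the median log2 fold change was 0.30, and 15.4% of the genes were called higher. It was -0.22 in the group with the longest, where 2.14% were called higher. Of the 13 nuclear members in the group of shortest span 9 rose, with a median of 0.59. Of the 18 in the other groups 4 rose. Across the 31 members the rank correlation of span with log2 fold change was -0.71, and across all 8880 genes it was -0.34 (Spearman; genes share the libraries and are not independent).

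With these genes alone and no correction, 13 of the 31 members were called higher, where 6.7% of all genes were. After each library was corrected for its own trend with span, the median of the nuclear members was 0.28 in place of 0.44, and 5 of 31 were called higher, where 5.18% of all genes with a span were. The 5 were COX6A1 (0.62, adjusted p = 0.00622), SDHB (0.55, 0.0191), NDUFA12 (0.55, 0.0265), ATP5MC1 (0.62, 0.0359) and NDUFS4 (0.57, 0.0274). NDUFS4, an accessory subunit of complex I with a span of 113214 bases, was not called without the correction (0.39 ± 0.14, adjusted p = 0.0861). The calls of NDUFA2, NDUFS3, NDUFS5, NDUFB3, NDUFB6, NDUFB11, UQCRQ, NDUFA4L2 and ATP5MC3 ended (adjusted p from 0.078 to 0.509). UQCRQ had a log2 fold change of 0.35 in place of 0.90, NDUFA2 of 0.34 in place of 0.85, and ATP5MC3 of 0.17 in place of 0.59. NDUFB3 had 0.47 in place of 0.61 (adjusted p = 0.0803) and NDUFB6 0.45 in place of 0.60 (0.078). NDUFA3 and NDUFB9 had no span and were not in this fit, nor were the 13 mitochondrially encoded genes, for which the check is void.

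**Figure D5:**
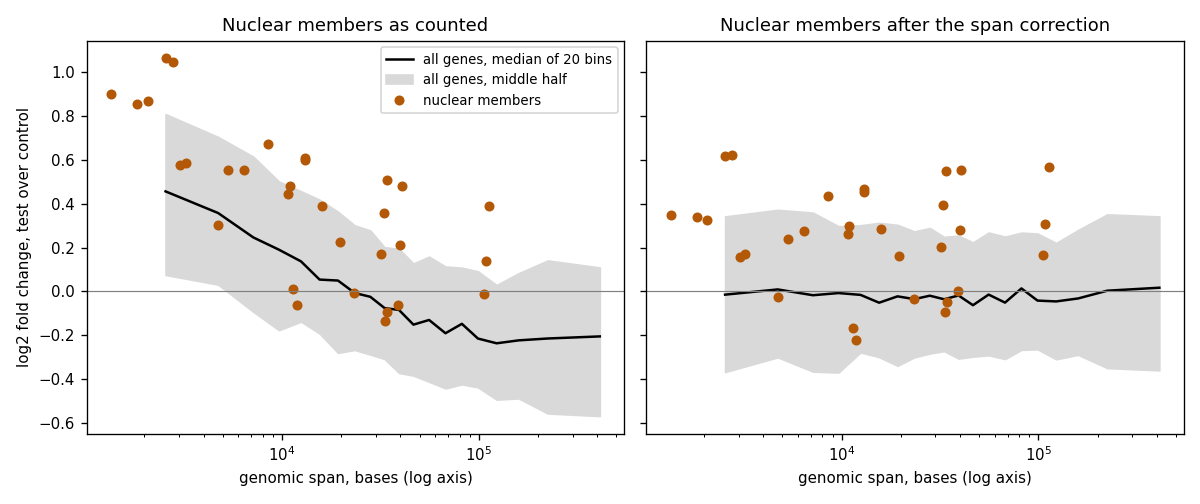
Log2 fold change of the 31 nuclear members with a span (orange) against genomic span on a log axis, as counted and after the span correction. The black line is the median of all genes in 20 bins and the grey band their interquartile range. On the left, members of short span lie high, as does the line. On the right the line is flat, and the members have a median of 0.28.

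The 10 subunits and assembly factors with no pathway entry included 3 that rose of the 9 tested, and 0 fell (median 0.53). Among all genes tested, 6.84% were called higher and 6.15% lower. The test group lay above the control group in 6 of the 9, as it did in 18.4% of all genes tested. COX5A, next to COX4I1 in the early assembly of complex IV, had 72.1, 56.4 and 61.8 CPM in control and 91.7, 92.9 and 90.9 CPM in test libraries (log2 fold change 0.53 ± 0.13, adjusted p = 0.0226). COX5B, a zinc-binding subunit, had 45.9, 29.2 and 44.9 CPM against 67, 69.8 and 75.1 CPM (0.82 ± 0.17, adjusted p = 0.0157). ATP5F1E, the epsilon subunit of the ATP synthase, had a value of 0.59 ± 0.16 (adjusted p = 0.0411), and after the span correction 0.18 (0.407). COX8A (0.75 ± 0.27, adjusted p = 0.0919) and UQCRC1, a core protein of complex III (0.39 ± 0.16, adjusted p = 0.14), had test values above all control values but were not called. Of these 3 calls, none held without test replicate 1, 2 or 3 (adjusted p from 0.0553 to 0.164), and those of COX5A and ATP5F1E ended without control replicate 3 (0.0802 and 0.0995). COX4I2, a second isoform of subunit IV, had 1.53, 0.138 and 3.24 CPM in control and 1.47, 2.41 and 1.92 CPM in test libraries. COX7A1, the subunit VIIa isoform of heart and skeletal muscle, had counts in control replicate 3 alone (0.444 CPM), and its level in the test group was 0.

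The mitochondrion also holds proteins outside the respiratory complexes, and most of those listed did not pass the test. The counts below stand beside 6.84% of all genes called higher and 6.15% lower. Of 43 tested proteins of the mitochondrial ribosome, which translates the 13 mitochondrially encoded members, 6 rose and 0 fell (median 0.30). MRPL11 rose from 7.84 ± 2.38 to 19.3 ± 3.83 CPM and MRPL52 from 13.8 ± 4.02 to 29.9 ± 4.14 CPM (adjusted p = 0.0138 and 0.013). Corrected for span, the genes of the list with a span, which need not be all 43, had a median of 0.18. MRPL11 then had a log2 fold change of 0.86 in place of 1.30 (adjusted p = 0.0385). MRPL52 had 0.76 in place of 1.11 and was not called (0.0536). The list for transcription and upkeep of the mitochondrial genome, with the transcription factor TFAM, the polymerase POLG and the RNA-binding protein LRPPRC, had 0 of 14 members called (median -0.07). Its summed level was 361.1 to 369.7 CPM in control and 348.6 to 364.5 CPM in test libraries. Assembly factors of the complexes had 2 of 26 called higher, COX14 (1.07 ± 0.28) and UQCC2 (0.72 ± 0.20), with adjusted p of 0.0323 and 0.0397. Of 11 tested regulators of mitochondrial gene number, only PPARD was called, with 35.9 ± 2.23 CPM against 56.2 ± 6.03 CPM (adjusted p = 0.0157). These calls rested on the libraries kept. All 5 named genes lost theirs when test replicate 2 was left out (adjusted p from 0.0548 to 0.0905), and none was called in all 6 fits with a library left out. Proteins of the cytosolic ribosome, also encoded by short genes, had 7 of 19 called higher and 0 lower. Their median was 0.31, and -0.17 after the span correction over those with a span, which turned that of RPL32 from 0.57 to -0.21.

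Markers of several cell types differed between the groups as well. Muscle fibre genes (6 of the 8 markers in the table, 5 tested, all higher) summed to 2.35 to 5.18 CPM in control and 33.4 to 45.4 CPM in test libraries. Macrophage and giant cell genes, with 3 of 5 higher and CD163 lower, summed to 4864 to 5442 CPM and 7908 to 8453 CPM. CTSK alone had a mean of 3316 CPM in control and 6332 CPM in test libraries, and CSF1R was not called. Neutrophil genes (3 of 5 higher) summed to 71 to 134.4 CPM and 403.1 to 457.9 CPM. S100A8, S100A9 and S100A12 were the 3, and their test means of 233.7, 163.9 and 21.1 CPM made up most of that sum. CSF3R and CXCR2 were not called, and the lowest log2 fold change of the list was -0.47. The macrophage gene CD68 and the muscle gene MYH1 lost their calls without test replicate 2 (adjusted p = 0.0541 and 0.0548). Lower in the test group were 4 of 5 fibroblast genes (29136 to 41528 CPM against 17407 to 20558 CPM) and 3 of 4 B and plasma cell genes (478.9 to 1240 CPM against 105.8 to 244.4 CPM). Of the adipocyte genes, ADIPOQ was lower and LEP had 0 counts, and the 4 in the table summed to 62 to 138.7 CPM against 28.7 to 36.5 CPM. Endothelial genes had 1 of 4 lower (702.4 to 1148 CPM against 615 to 696.6 CPM), and 0 of 6 cartilage genes and 0 of 1 red cell gene (ALAS2) passed. Without test replicate 2, 0 of the B and plasma cell genes were called (JCHAIN, MS4A1 and MZB1 with adjusted p of 0.0548, 0.0799 and 0.137), and without test replicate 3 JCHAIN alone was (0.0451). COL1A1 and DCN, fibroblast genes, lost their calls without control replicate 3 (0.061 and 0.131) and without test replicates 1 (0.0567 and 0.119), 2 (0.0746 and 0.109) and 3 (0.0898 and 0.147), which left 2 of the 5. VWF, the endothelial gene called, lost its call when any of the same 4 libraries was left out (adjusted p from 0.0734 to 0.106). The part of these cells in the differences of the respiratory subunits was not tested.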

How the data were processed

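Per the file headers, the authors deposited raw counts per gene for 6 libraries, and the values are whole numbers. The 6 columns of the second block, normalized by the authors, were not used. Per the labels, total RNA was depleted of ribosomal RNA and made into stranded libraries. The submitters' processing notes list rn6, a rat build, and the tools HISAT2, Cuffdiff and cutadapt 1.9.3, with no step given for any. The counter, its strand setting and the annotation are not given in the sources used here.

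Counts were compared with the edgeR 4.0.16 quasi-likelihood test (two-sided, run in R 4.3.3) after TMM scaling and filterByExpr (minimum count 10, minimum total 15), on all 6 libraries without a block or covariate. P-values were adjusted by Benjamini-Hochberg over 12740 genes, with a threshold of 0.05. Standard errors were obtained from F, as the size of the log2 change over its root. Alternatives were DESeq2 size factors, normalization without mitochondrially encoded genes, no filter, DESeq2 1.42.0, limma-voom (limma 3.58.1), a replicate block, each library left out, and a span correction (lowess, fraction 0.5, on deviations of log2 CPM with prior count 0.5) with and without the block. Chosen after seeing the data was a fit of genes with a span alone. Spans are from RefSeq (mOryCun1.1), matched by gene number.

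The members and lists were chosen with earlier results of these data known. All 13 mitochondrially encoded members, all called nuclear members, the extremes of each complex and a set of core subunits and isoforms are named, with up to 4 called genes of other lists. A simulation in 12740 genes recovered 15 of 100 genes changed by 0.7 and 67 of 100 changed by 1.5 on the log2 scale, with 12 false calls in all. Results for a few genes are not reported here. No sequences were used here. Figures were drawn with matplotlib 3.10.9.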

Additional observations from a re-analysis of the deposited data

How the results depend on the processing

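Of the members' calls, DESeq2 size factors and normalization without mitochondrially encoded genes changed 0, and 0 members reversed a call under the alternatives run. Over all genes, 1655 calls became 446 to 2164 when a library was left out, 889 with the span correction and 912 with the replicate block and the span correction. The 26 member calls became 14 to 26 without a library, 13 among genes with a span alone (where the mitochondrially encoded genes are missing), and 5 with the span correction, with or without the block. The 15 nuclear calls became 5 to 15 without a library and 5 with the span correction, with or without the block, and the nuclear median of 0.44 became 0.28 and 0.29. The cause was not tested. RPL32 turned from 0.57 to -0.21 with the span correction and to -0.20 with the block as well.

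The share of counts in mitochondrially encoded members, with a difference of -4.19 percentage points (test minus control), ranged from -5.0 to -3.4 without a library. Titles number the replicates 1 to 3 in both groups, and the labels do not say whether a number marks a shared animal or day. Deviations of same-numbered libraries correlated at 0.0795, -0.0182 and 0.0233. With 3 libraries per group, such values cannot show whether the libraries are paired. With the replicate block 22 members were called, 11 nuclear and 11 mitochondrially encoded, against 26, where 13.2% of all genes (1681) were called. A member that missed the threshold is not shown to be equal between the groups.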

Other observations

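Lists outside the respiratory chain gave further values. In the mitophagy list, 2 of 9 tested genes rose and 0 fell, where 6.84% of all genes were called higher and 6.15% lower. BNIP3, a mitochondrial outer membrane receptor for autophagy that hypoxia induces, rose from 102.9 ± 10.8 to 175 ± 13.3 CPM (SD, n = 3 per group, edgeR adjusted p = 0.00434), and was called without any single library and after the span correction (0.0275). ULK1, a kinase that starts autophagy, rose from 26 ± 2.23 to 47.8 ± 7.65 CPM (edgeR adjusted p = 0.00906). It lost its call without test replicate 2 (0.0551) or test replicate 3 (0.058).

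In fatty acid oxidation, 2 of 14 genes rose, ECI1 and ACADVL (log2 fold changes 0.89 and 0.59, edgeR adjusted p = 0.0199 and 0.0243). Corrected for span, ECI1 had 0.67 (edgeR adjusted p = 0.0478) and ACADVL 0.28 (0.171), which ended its call. Among 12 genes of mitochondrial carriers and membranes, TOMM40, the channel of the outer membrane import complex, rose by 1.12 and PHB2, a prohibitin, by 0.43, while IMMT, a protein of the crista junction, fell by 0.46 on the log2 scale (edgeR adjusted p = 0.027, 0.0403 and 0.0344). With the span correction PHB2 had 0.08 (edgeR adjusted p = 0.685) and IMMT -0.38 (0.0758), and neither was called. None of these 5 was called without control replicate 3 or any single test library. Of 5 genes for uncoupling and antioxidants, 0 passed, and their median log2 fold change was 0.22, and -0.49 after the span correction over those with a span.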
